A study of Mus musculus with 8 samples.

Results

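The genes described here lie around Nr1h2, the gene for LXRβ, on mouse chromosome 7. They are 8 genes, Lrrc4b, Aspdh, Josd2, Emc10 and Pold1 toward lower coordinates and Napsa, Nup62 and Akt1s1 toward higher coordinates, and 7 of the 8 had a row among the 25010 genes of the expression table. Lrrc4b was not analysed here. The 8 were selected on their position next to Nr1h2 and on their measured difference between WT and LXRDKO livers, so that their own difference between genotypes is a description, and how they fared in the test across all genes supports nothing.

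RNA-Seq was performed on the left liver lobe of 2 WT mice and of 2 LXRDKO mice, which lack both Nr1h3, the gene for LXRα, and Nr1h2 in every tissue. All 4 mice, on a C57BL/6 background, were killed at an age of 8 wk after a fast of 4 to 6 h, and each liver gave a separate library. The authors had backcrossed both knockout lines to C57BL/6. How much DNA of another strain remains around the deleted gene is not given in the sources used here, and counts per gene do not show it. Loss of the receptors and the altered Nr1h2 allele came together in the same mice, so what a flanking gene owes to either cannot be told apart.

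LXRα and LXRβ are nuclear receptors for oxysterols. They bind DNA with RXR at direct repeats of a half-site, usually with a spacer of fixed length, and in liver they are known for turning on genes of cholesterol export and fatty acid synthesis. A gene removed by targeting in embryonic stem cells is passed on together with the DNA on either side of it, and an inserted cassette may stay in the locus, so the neighbours of a knocked-out gene are customarily looked at beside its targets. The genes around Nr1h2 encode proteins with no common task. Josd2 encodes a deubiquitinase of the Josephin family, Pold1 the catalytic subunit of the replicative DNA polymerase δ, Emc10 a subunit of the complex that inserts membrane proteins into the ER, and Aspdh a putative aspartate dehydrogenase. On the other side, Napsa encodes the aspartic protease napsin A, known from lung and kidney, Nup62 a nucleoporin of the central channel of the nuclear pore, and Akt1s1 the mTORC1 inhibitor PRAS40.

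Positions are those of GENCODE M21 on GRCm38, the assembly called mm10. Nr1h2 occupies chr7:44549616-44553951 on the minus strand. Pold1, at chr7:44532746-44548849 on the same strand, begins 766 bases beyond the 3′ end of Nr1h2. Aspdh, at chr7:44465391-44467758, and Josd2, at chr7:44467980-44471662, follow each other on the plus strand with 221 bases between them, 81.9 and 78.0 kb from Nr1h2. Emc10, at chr7:44489937-44496529 on the minus strand, lies 53.1 kb away and starts 51 bases from the start of Fam71e1 on the opposite strand. Napsa, at chr7:44572380-44586862, is the nearest member at higher coordinates, 18.4 kb from Nr1h2. Nup62, at chr7:44816088-44830812, and Akt1s1, at chr7:44848991-44855421, lie much farther out, at 262 and 295 kb, and all 3 are on the plus strand.

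RefSeq promoters on GRCm38.p6, each of 250 bases before to 50 bases after a start, were matched for 7 of the 8 genes, Napsa being the exception. Those of the 4 genes that were lower in both LXRDKO livers are shown here 5′ to 3′ on the strand of the gene, with the bases from the start onward in capitals. The first of the 2 Emc10 windows is given.
Josd2: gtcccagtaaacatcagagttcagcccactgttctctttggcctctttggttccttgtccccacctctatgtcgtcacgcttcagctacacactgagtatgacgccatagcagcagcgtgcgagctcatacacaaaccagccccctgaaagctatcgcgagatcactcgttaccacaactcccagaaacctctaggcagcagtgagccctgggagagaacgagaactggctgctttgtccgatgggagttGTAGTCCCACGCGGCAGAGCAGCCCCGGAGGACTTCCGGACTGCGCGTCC
Aspdh: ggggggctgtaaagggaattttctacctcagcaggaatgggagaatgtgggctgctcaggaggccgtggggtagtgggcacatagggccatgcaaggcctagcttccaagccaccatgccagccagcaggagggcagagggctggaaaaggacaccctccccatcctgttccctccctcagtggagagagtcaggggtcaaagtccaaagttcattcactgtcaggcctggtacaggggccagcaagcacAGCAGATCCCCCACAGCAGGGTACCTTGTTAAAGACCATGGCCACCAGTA
Pold1: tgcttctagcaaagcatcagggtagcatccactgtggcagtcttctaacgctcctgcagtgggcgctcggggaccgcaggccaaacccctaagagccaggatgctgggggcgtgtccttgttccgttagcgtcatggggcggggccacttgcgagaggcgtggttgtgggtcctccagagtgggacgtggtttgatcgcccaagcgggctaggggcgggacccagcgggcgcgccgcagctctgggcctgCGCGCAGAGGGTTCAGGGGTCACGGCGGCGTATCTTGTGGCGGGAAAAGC
Emc10: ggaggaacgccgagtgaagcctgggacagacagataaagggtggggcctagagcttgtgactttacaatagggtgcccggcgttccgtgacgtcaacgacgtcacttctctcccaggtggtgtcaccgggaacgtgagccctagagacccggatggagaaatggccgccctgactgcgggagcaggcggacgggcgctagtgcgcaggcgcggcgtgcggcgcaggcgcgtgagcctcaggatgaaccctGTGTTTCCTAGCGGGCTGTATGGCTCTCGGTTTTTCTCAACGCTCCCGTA
The windows are chr7:44467730-44468029 for Josd2, chr7:44465185-44465484 for Aspdh, chr7:44548766-44549065 for Pold1 and chr7:44496369-44496668 for Emc10. The first 29 bases of the Josd2 window are the end of Aspdh. On both strands, the windows of the 7 genes held 0 copies of the nuclear receptor half-site AGGTCA, which 16.3% of all 32851 promoters of this length held. The direct repeat of AGGTCA with 4 bases between, a motif that contains the half-site, was in 0.0152% of all promoters. The box CCAAT, found in 37.4% of promoters on either strand, occurred only in the window of Nup62 among the 7, at 242 and 90 bases before the start. The absence of a motif says only that these letters are not in these windows. The 4 windows printed have G or C at 58.3% (Aspdh), 56.7% (Josd2), 65.7% (Pold1) and 62.7% (Emc10) of positions, against a median of 52.7% over all promoters.

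The libraries held between 55772659 and 72842744 reads on genes. Values are normalized counts, that is, reads of a gene divided by the size factor of the library, and log2 fold changes compare log2(normalized count + 1) between LXRDKO and WT, which understates changes of genes with few reads. WT livers gave 2987 and 3110 normalized counts of Nr1h2 itself and LXRDKO livers 925 and 1003, with a log2 fold change of −1.66 ± 0.098 (SE, n = 2 per group). The LXRDKO mean was 31.6% of the WT mean, so transcripts of the locus were still counted, and counts per gene do not show which exons they cover. Nr1h3, on chromosome 2, fell from 5785 and 5322 to 1712 and 1826 normalized counts. With limma, Benjamini-Hochberg adjusted P was 0.0147 for both receptors and, for Nr1h2, 0.0952 or 0.0627 with LXRDKO replicate 1 or 2 left out.

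For Josd2, the WT livers gave 2837 and 2557 normalized counts, against 1176 and 952 after deletion of the receptors. The groups lay far apart, since even the lower WT liver exceeded the higher LXRDKO liver more than the livers of either group differed. Its mean was 2697 ± 198 (SD, n = 2) in WT and 1064 ± 158 in LXRDKO, 39.5% of WT, and the log2 fold change was −1.35 ± 0.14 (SE). The livers of a group differed by 0.15 (WT) and 0.30 (LXRDKO) on the same log2 scale. In bulk liver, fewer cells that express a gene and less RNA per cell cannot be told apart, here and in what follows.

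Pold1, the member nearest to Nr1h2, was expressed at a low level. Its normalized counts were 268 and 239 (WT) and 98.7 and 76.1 (LXRDKO), from 235, 281, 104 and 71 reads. Again the groups did not overlap. The LXRDKO mean was 34.5% of the WT mean and the log2 fold change −1.53 ± 0.23 (SE), the largest fall among the 7 genes.

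Aspdh and Emc10 were lower by less. Aspdh was at 7149 and 7364 normalized counts for WT and at 5451 and 4843 for LXRDKO, a log2 fold change of −0.50 ± 0.097 (SE), or 70.9% of WT. For Emc10 the WT values were 4053 and 4382 and the LXRDKO values 3349.7 and 3194, a log2 fold change of −0.37 ± 0.092 (SE), or 77.6% of WT. For both genes the groups were separate, and the 2 livers of a group differed by between 0.043 and 0.17 on the log2 scale. Aspdh and Josd2, neighbours on the same strand, therefore differed in the size of their fall, with 70.9% and 39.5% of the WT level left.

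On the other side of Nr1h2 no member was lower. Napsa was at 17.1 and 39.9 normalized counts for WT and at 77.8 and 57.9 for LXRDKO, from 15, 47, 82 and 54 reads. Both LXRDKO values exceeded both WT values, but the WT livers differed from each other by 1.17 on the log2 scale, nearly as much as the log2 fold change of 1.32 ± 0.47 (SE). Nup62 was at 717 and 691 for WT and at 825 and 1003 for LXRDKO, a log2 fold change of 0.37 ± 0.14 (SE) without overlap. The values of Akt1s1 were 3710.4 and 3197 (WT) and 4073 and 3614 (LXRDKO). Its groups overlapped, with a log2 fold change of 0.16 ± 0.12 (SE) that was within the 0.22 between the WT livers.

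**Figure D1:**
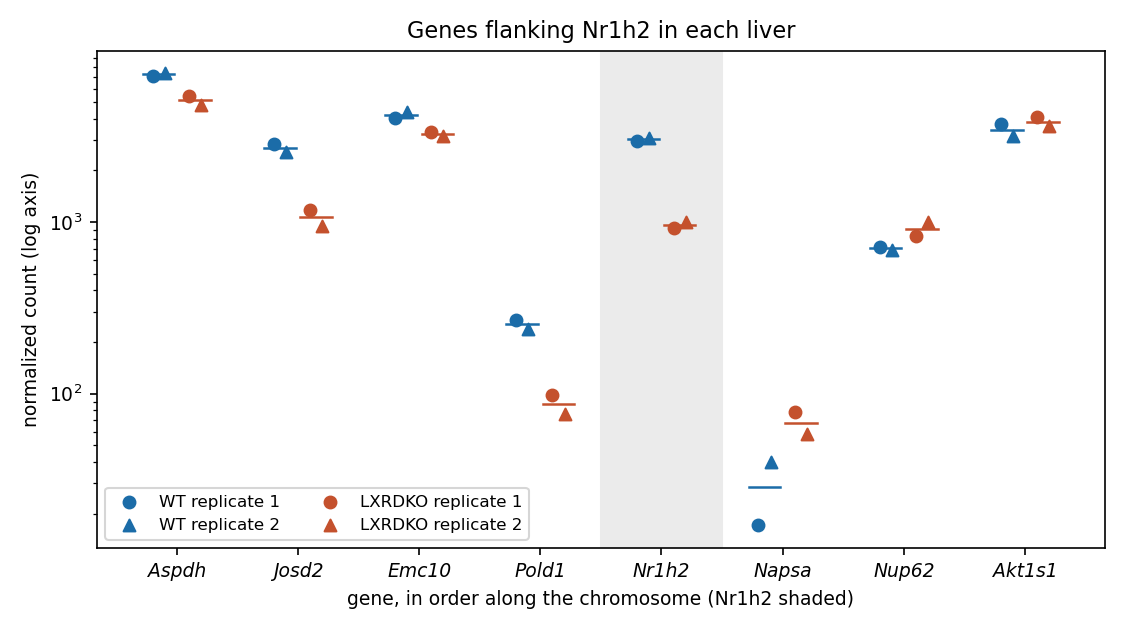
Normalized counts (vertical log axis) of the 7 flanking genes and of Nr1h2 (shaded), in order along the chromosome, with 1 point for each of the 2 WT (blue) and 2 LXRDKO (orange) livers and a line at each group mean. Josd2 and Pold1 fell to 39.5% and 34.5% of the WT mean, beside 31.6% for Nr1h2, whereas Napsa and Nup62 lay above WT and the groups of Akt1s1 overlapped.

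Of the 7 genes, 4 had both LXRDKO values below both WT values and 2 had both above, while 23.0% of the 15578 genes tested lay below and 21.7% above in this way. At an adjusted P of 0.05, 1 of the 7, Josd2, was among the genes called by limma, which called 0.321% of all genes tested. DESeq2, run on the reads recovered from the normalized counts, called 3 of the 7, Aspdh, Josd2 and Pold1, and 3.59% of all genes. These counts describe genes that were chosen by this same difference, and nothing is read from them. Over all genes tested the median log2 fold change was −0.0046 and the median of its absolute value 0.17. The median difference between livers of a group was 0.18 in WT and 0.17 in LXRDKO.

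Levels were also set side by side per kb of annotated exon. In the WT livers Aspdh was the highest of the 7, with 4864 and 5009.6 normalized counts per kb, followed by Emc10 with 1389 and 1502. Akt1s1, with 1208 and 1041 per kb, and Josd2, with 1077 and 971, overlapped and could not be ranked. Nup62 (251 and 242 per kb), Pold1 (55.2 and 49.1) and Napsa (6.43 and 15.0) came last, each pair apart from the next. In LXRDKO livers Akt1s1, at 1326 and 1176 per kb, stood above Emc10, at 1148 and 1095. Josd2, at 447 and 362 per kb, had come down to just above the 289 and 352 of Nup62. Napsa, at 29.3 and 21.8 per kb, was above Pold1, at 20.3 and 15.7, so that the lowest places were exchanged.

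The remaining genes around Nr1h2 are those left once genes picked for a difference had been taken out, which by itself lowers the number of calls to be found among them. Within 500 kb of Nr1h2 the table held 45 other genes, of which 31 passed the filter of a mean of at least 10 normalized counts. With limma 0 of these 31 were called after adjustment over all genes, 3 had an unadjusted P under 0.05, and DESeq2 called 1, Klk1b4. The shares called over all genes were 0.321% with limma and 3.59% with DESeq2. Their median log2 fold change was −0.034 and the median absolute value 0.12. With the 7 members put back, the window held 38 genes tested, of which limma called 1 and DESeq2 4, and the median absolute value was 0.14, against 0.17 over all genes. Of the 31, 8 lay below WT in both LXRDKO livers, 3 lay above, and 20 had overlapping groups, or 25.8%, 9.68% and 64.5% against 23.0%, 21.7% and 55.3% of all genes.

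The genes directly among the members behaved differently from one another. Mir7052, a microRNA gene inside Josd2, was at 37.6 and 46.7 normalized counts for WT and at 13.3 and 4.29 for LXRDKO. It was lower in both LXRDKO livers, with a log2 fold change of −2.30 ± 0.57 (SE) and an adjusted P of 0.205 by limma. Its hairpin of 65 bases, chr7:44470347-44470411, shares 0 bases with the exons of Josd2 but lies on the same strand and ends directly before the exon that starts at 44470412, so its counts from polyadenylated RNA need not be separate from those of Josd2. RefSeq gives the mature products below, with the seed, bases 2 to 8, in capitals. The 2 seeds differ, and neither mature microRNA was measured by this assay.
mmu-miR-7052-5p: uGUGGGAAgguggaggccuuu
mmu-miR-7052-3p: gCUCUGCCcccuccuucccag

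Fam71e1, which starts 51 bases from Emc10, was at 22.8 and 37.3 normalized counts for WT and at 22.8 and 19.3 for LXRDKO. The lowest WT and the highest LXRDKO value were nearly the same, 22.81 and 22.78, so it lay only barely below WT. Its log2 fold change of −0.46 ± 0.40 (SE) had an adjusted P of 0.695 by limma. Spib, a transcription factor gene of B cells and plasmacytoid dendritic cells that lies between Fam71e1 and Pold1, overlapped between groups, at 25.1 and 33.1 for WT and 19.0 and 36.4 for LXRDKO. Syt3, farther out than Aspdh at 149 kb, had a log2 fold change of −0.0088. From Aspdh to Pold1, every gene tested lay below WT except Spib, whose groups overlapped. Aspdh, Josd2, Emc10 and Pold1 among them were chosen by this same difference, and Mir7052 lies inside Josd2. Spib and Fam71e1, however, rested on 20 to 39 and 18 to 44 reads a liver. A fall like that of Emc10, −0.37, is within the SE of both, 0.44 for Spib and 0.40 for Fam71e1. The overlap in Spib therefore does not show that it was unchanged, nor does the narrow separation in Fam71e1 show that it was lower.

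Toward lower coordinates within 500 kb, members included, 7 of 12 genes tested lay below WT and 0 above, with a median log2 fold change of −0.41. Toward higher coordinates 5 of 26 lay below and 5 above, with a median of −0.00033. The members in these counts were chosen by this same difference, so nothing is read from the contrast of the sides. Without the members 3 of 8 lay below and 0 above on the lower side, namely Klk1b4, Mir7052 inside Josd2 and, only barely, Fam71e1. On the higher side 5 of 23 lay below and 3 above. Over all genes tested 23.0% lay below and 21.7% above. Without the members the medians were −0.13 over 8 genes and −0.0076 over 23, and that they lie closer together follows in part from how the members were chosen. Of the non-members on the lower side, Clec11a, 2410002F23Rik, 1700028J19Rik, Syt3 and Spib overlapped between groups.

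Klk1b4, a kallikrein gene 338 kb away, was the other gene of the lower side with a large difference. The WT livers gave 65.0 and 132 normalized counts, the LXRDKO livers 11.4 and 28.9, so that both of the latter were lower. The log2 fold change was −2.28 ± 0.56 (SE), with an adjusted P of 0.205 by limma and 0.0089 by DESeq2. The livers of a group differed from each other by 1.02 (WT) and 1.27 (LXRDKO) on the log2 scale, and kallikrein genes are near-identical copies among which 50 bp reads may be split.

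On the higher side the differences were small. Atf5, which encodes a stress-responsive transcription factor and shares 82 exonic bases with Nup62 on the opposite strand, was at 16570 and 17505 normalized counts for WT and 20140 and 19361 for LXRDKO, a log2 fold change of 0.21 ± 0.095 (SE) with an adjusted P of 0.410 by limma. Il4i1, which shares 97 exonic bases with Nup62 on the same strand, went the other way by −0.096 ± 0.25 (SE). Cpt1c was also above WT in both LXRDKO livers, by 0.44, and Ptov1, Fuz, Irf3 and Scaf1 were below, by between −0.22 and −0.15. Irf3, which encodes a transcription factor of the interferon response, was at 3846 and 3908 for WT and 3428 and 3243 for LXRDKO, with an adjusted P of 0.373. The groups of Myh14, 2310016G11Rik, Zfp473, Vrk3, Tbc1d17, Med25, D7Bwg0826e, Ap2a1, Prmt1, Gm15545, Bcl2l12, Rras, Prr12 and Prrg2 overlapped. Myh14, 51.9 kb from Nr1h2, had a log2 fold change of −0.080.

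The other deleted receptor served for comparison. Within 500 kb of Nr1h3 on chromosome 2, limma and DESeq2 each called 0 of 25 genes tested, with 1 at an unadjusted P under 0.05 by limma. The groups lay apart downward in 6 and upward in 5, or 24% and 20%, close to the 23.0% and 21.7% of all genes. The median absolute log2 fold change was 0.10, against 0.17 over all genes. As limma called 0.321% and DESeq2 3.59% of all genes, 0 calls among 25 say little. Those with the largest absolute log2 fold changes were C1qtnf4 (0.85 ± 0.65), A330069E16Rik (−0.60 ± 0.39), 1110051M20Rik (0.36 ± 0.20), Lrp4 (−0.33 ± 0.12) and Ptpmt1 (0.21 ± 0.098), with adjusted P values from 0.337 to 0.652. C1qtnf4 rested on 5.70 and 20.4 normalized counts for WT and 24.7 and 17.2 for LXRDKO, and its groups overlapped. The 8 genes around Nr1h2 were picked for their differences and no gene around Nr1h3 was, so the loci were not compared by a test.

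**Figure D2:**
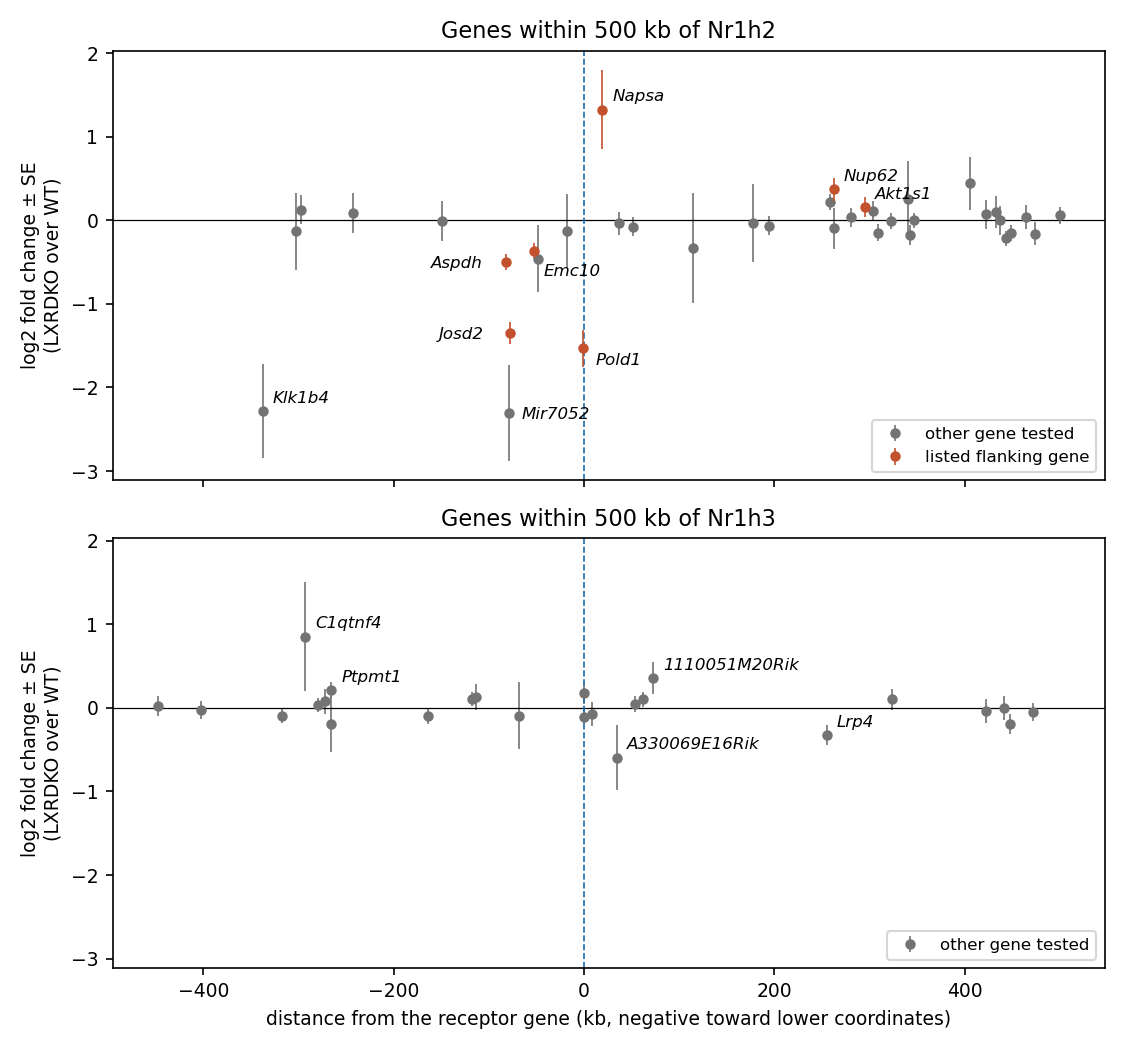
Log2 fold change of LXRDKO over WT with its SE (vertical axis) against distance from the receptor gene in kb (horizontal axis) for genes within 500 kb of Nr1h2 (upper panel, 38 genes) and of Nr1h3 (lower panel, 25 genes), 1 point per gene. The flanking genes described here (orange) spread from −1.53 for Pold1 to 1.32 for Napsa, and the other genes (grey) had a median of −0.034 around Nr1h2.

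Farther along chromosome 7, out to 10 Mb from Nr1h2, limma called 1 gene outside the 8. Gm2788, a processed transcript 4.32 Mb away, was at 2027 and 2078 normalized counts for WT and 710 and 799 for LXRDKO, with a log2 fold change of −1.45 ± 0.11 (SE) and an adjusted P of 0.0239, which became 0.125 or 0.0702 with LXRDKO replicate 1 or 2 left out. The genes beside it were lower as well. E2f8, which encodes a cell cycle transcription factor, Csrp3, a muscle LIM protein gene, and Nav2, a neuron navigator gene, had log2 fold changes of −1.34, −0.84 and −0.75 and were called by DESeq2, with adjusted P values from 2.8e-08 to 0.0111, though not by limma, where adjusted P ran from 0.0657 to 0.181. In the annotation Gm2788, at chr7:48877958-48913040 on the plus strand, overlaps E2f8, at chr7:48866429-48881596 on the minus strand, and the start of Nav2 at chr7:48908716-49610090, so that reads of the 3 may be shared.

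DESeq2 called 6 further genes within 10 Mb. Car11, a carbonic anhydrase-related gene 1.15 Mb away, was at 24.0 and 22.1 normalized counts for WT and 137 and 105 for LXRDKO, a log2 fold change of 2.33 ± 0.29 (SE) with an adjusted P of 1.4e-05 by DESeq2 and 0.0615 by limma. Bax, the apoptosis effector gene 0.908 Mb away, was higher by 0.69 ± 0.13 and the antisense gene 0610005C13Rik, 1.01 Mb away, lower by −0.66 ± 0.10, both with groups apart. Saa4, a serum amyloid A gene, was higher by 0.92 ± 0.30, with an adjusted P of 0.0447 by DESeq2 and 0.301 by limma. Its WT livers, at 33081 and 17068 normalized counts, differed from each other by 0.95 on the log2 scale, more than the genotypes did. Rhpn2, 9.16 Mb toward lower coordinates, was lower by −0.66 ± 0.14. Klk1b4 was the sixth. Around Nr1h3 DESeq2 called Calcrl alone within 10 Mb, 6.76 Mb away, at −0.72 ± 0.17, and limma 0 genes. Fewer genes were tested there, with 32 within 1 Mb of Nr1h3 against 62 non-members around Nr1h2. From 1 to 2, from 2 to 5 and from 5 to 10 Mb it was 10, 11 and 26 against 33, 29 and 37. Over all genes tested DESeq2 called 3.59% and limma 0.321%. Whether the loci differ in calls was not tested. An absolute log2 fold change over 0.3 was found in 3 of 10 non-members within 0.25 Mb of Nr1h2, 9.52% of 21 from there to 0.5 Mb, 22.6% of 31 up to 1 Mb, 42.4% of 33 up to 2 Mb, 44.8% of 29 up to 5 Mb and 40.5% of 37 up to 10 Mb. Over all genes the share was 31.8%. With the members, which were chosen by such differences, it was 8 of 15 (53.3%) within 250 kb and 11 of 38 (28.9%) within 500 kb.

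**Figure D3:**
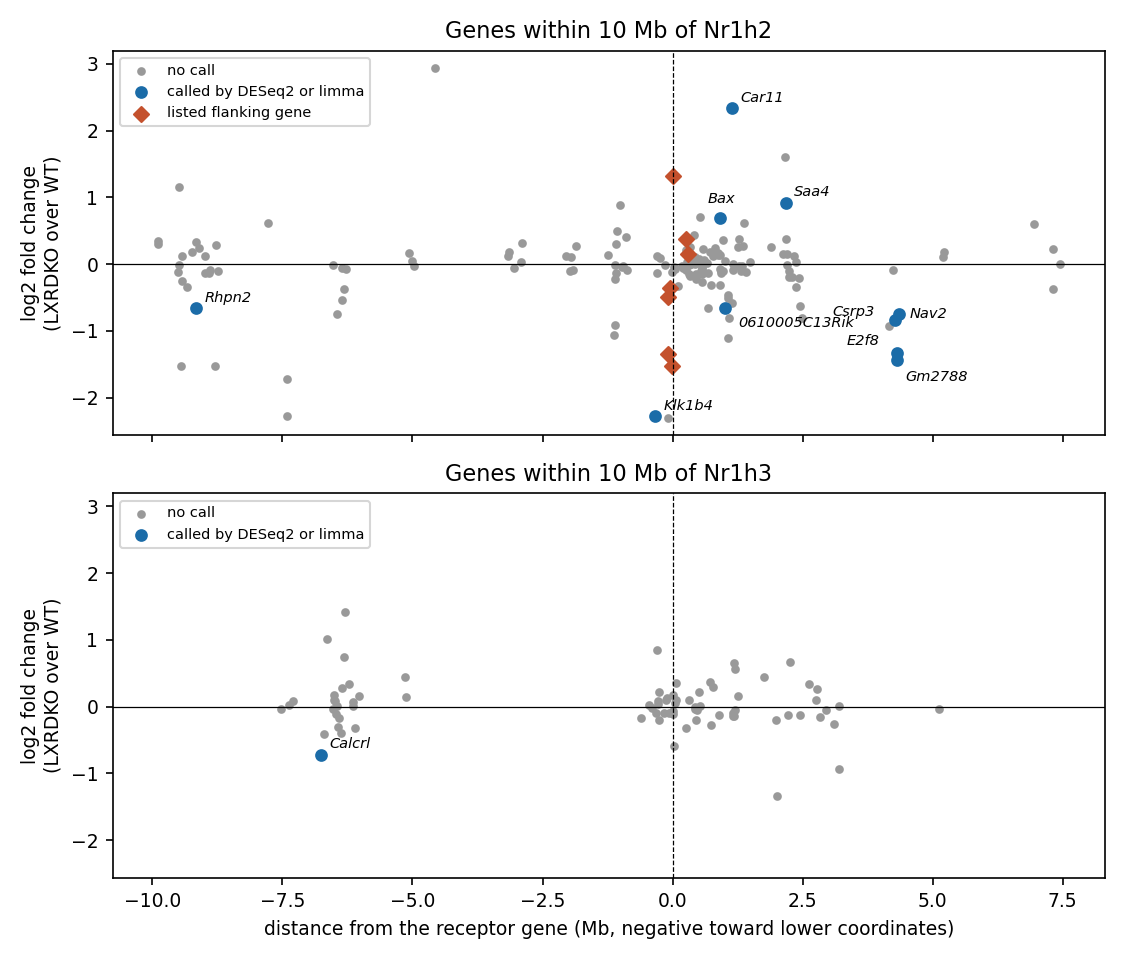
Log2 fold change of LXRDKO over WT (vertical axis) against distance in Mb (horizontal axis) for genes tested within 10 Mb of Nr1h2 (upper panel) and Nr1h3 (lower panel), with genes called by DESeq2 or limma in blue and the 7 flanking genes as orange diamonds. Besides the flanking genes, the called genes near Nr1h2 include Car11 at 2.33 and a cluster of 4 genes from Csrp3 to Nav2 between 4.28 and 4.35 Mb with log2 fold changes from −1.45 to −0.75.

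Because the members were chosen for a difference, a place at an end of a list follows in part from that choice. With that limit, each member was set beside the other genes of its complex or family. Of 49 such genes tested over 8 lists, limma called 1 and DESeq2 1, in both cases Got1. Over all genes tested the shares called were 0.321% and 3.59%, so that 0 calls in a list this short do not show unchanged genes. Both LXRDKO livers lay below WT in 23.0% and above in 21.7% of all genes tested, beside which the counts below and above are given. In the list of DNA polymerase δ with its clamp and clamp loader, which copies DNA behind the replication fork, 0 of 9 genes other than Pold1 were called, with 2 below, 2 above and a median log2 fold change of 0.015. Rfc3, a subunit of the clamp loader, was at 318 and 351 normalized counts for WT and 237 and 226 for LXRDKO and had the lowest log2 fold change of these, −0.53 ± 0.16 (SE, adjusted P 0.271). Pold2, the accessory subunit that binds Pold1 directly, had −0.26 ± 0.12 (adjusted P 0.418), and Pold4 0.24 ± 0.12. The values of these partners ran from −0.53 to 0.29, beside −1.53 for Pold1, which was picked for its difference.

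Josd2 was likewise the lowest of the Josephin deubiquitinases, a list with only 2 other genes tested. Josd1, its closest relative, was at 2574 and 2696 normalized counts for WT and 2270 and 2464 for LXRDKO (−0.16 ± 0.095, adjusted P 0.562), and Atxn3, the gene for ataxin-3, −0.021 ± 0.11. Among subunits of the ER membrane protein complex, 0 of 10 besides Emc10 were called, 2 lay below, 2 above and 6 overlapped, with Emc9 at −0.22 ± 0.097, Emc8 at 0.19 ± 0.11 and Emc1 at −0.18 ± 0.10. Emc10 was the lowest of the complex.

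Among the nucleoporins 0 of 5 besides Nup62 were called. Nup62 stood highest at 0.37, with Nup93, a scaffold nucleoporin, at 0.16 ± 0.13 and Nup214 at −0.12 ± 0.10. For the mTORC1 list 0 of 7 genes besides Akt1s1 were called, 4 lay below WT and 0 above. Over all genes tested 23.0% lay below and 21.7% above. Mtor, the kinase, had a log2 fold change of −0.40 ± 0.13 (adjusted P 0.292), Deptor, an inhibitor of the kinase, −0.42 ± 0.13 (adjusted P 0.283) and Akt2, the insulin-responsive kinase, −0.30 ± 0.094 (adjusted P 0.287). The median of this list was −0.16 and Akt1s1 had the highest value.

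Napsa had the highest value of its list and Aspdh the lowest of its own. Of 4 other pepsin-family proteases tested 0 were called. Ctse, the gene for cathepsin E, was at 30.8 and 78.1 normalized counts for WT and 10.4 and 26.8 for LXRDKO, a log2 fold change of −1.49 ± 0.63 (SE, adjusted P 0.397) in the direction opposite to Napsa. Bace1 and Bace2, genes for β-secretase and its relative, had −0.22 ± 0.13 and 0.078 ± 0.18. Among 7 genes of aspartate and NAD metabolism other than Aspdh, Got1, which encodes cytosolic aspartate aminotransferase, rose from 16831 and 20585 to 50704 and 57568 normalized counts, a log2 fold change of 1.54 ± 0.14 (SE) with an adjusted P of 0.0333 by limma, or 0.160 and 0.164 without LXRDKO replicate 1 or 2. Qprt, an enzyme of NAD synthesis from quinolinate, had −0.31 ± 0.088 (adjusted P 0.249), and Asrgl1, an asparaginase, −0.32 ± 0.15 (adjusted P 0.418). Of the relatives of Lrrc4b and their receptors 5 were tested and 0 called, with Ptprf at −0.37 ± 0.14 (adjusted P 0.361).

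**Figure D4:**
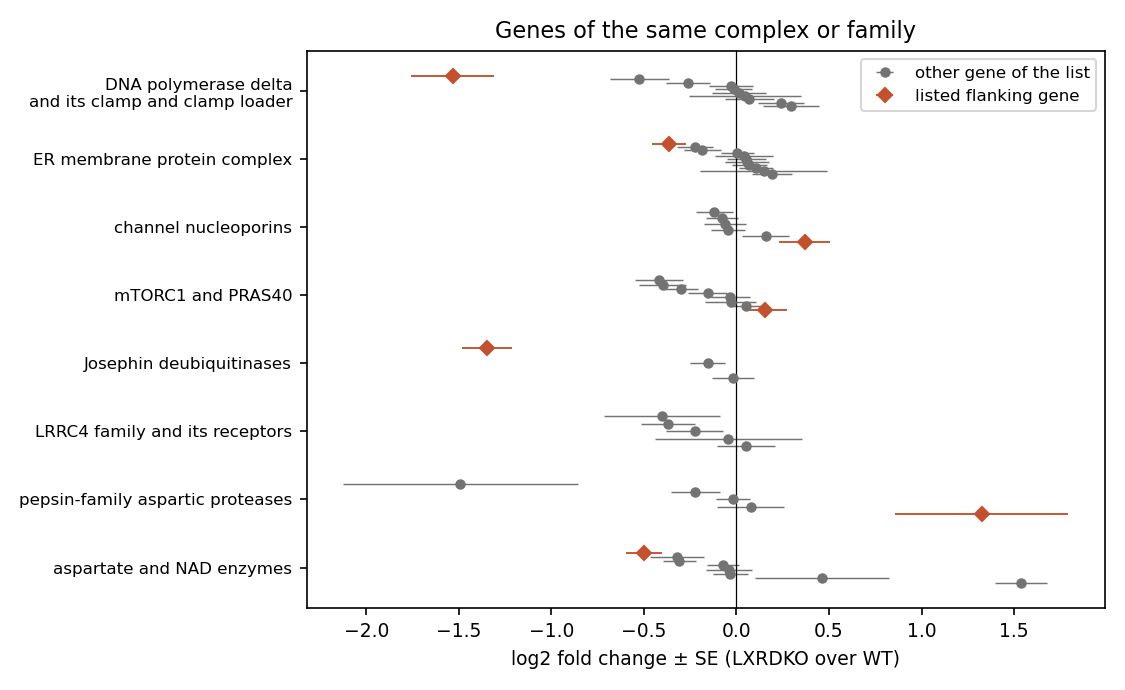
Log2 fold change of LXRDKO over WT with its SE (horizontal axis) for the genes tested in 8 lists of complexes and families (vertical axis), with 1 point per gene and the flanking genes as orange diamonds. Pold1, Josd2, Emc10 and Aspdh had the lowest value and Nup62, Akt1s1 and Napsa the highest value of their lists, all of them genes chosen by this difference. Among the genes that are no members, Got1 at 1.54 was the only 1 called by limma or DESeq2.

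Markers of other cell types differed between the same livers. Since Pold1 serves replication, markers of dividing cells are given beside it. Of these 8 markers 4 lay above WT, 1 below and 3 overlapped, 0 were called, and 0 were at 0 in a library. Over all genes tested 21.7% lay above and 23.0% below. Their summed normalized counts were 1296 to 1717 in WT and 1962 to 2232 in LXRDKO, opposite in direction to Pold1. For Napsa, 8 markers of dendritic cells held 2 below, 1 above and 5 overlapping, and their sums were 719 to 850.5 in WT and 776 to 894 in LXRDKO. The marker above was Itgax, the gene for CD11c, with 57.0 and 132 normalized counts in WT against 249 and 200.5 in LXRDKO. Those below were Zbtb46 (WT 401 and 384, LXRDKO 338 and 307) and Ccr7 (WT 24.0 and 30.6, LXRDKO 19.0 and 6.43).

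Itgax was also the gene with the pattern nearest to Napsa over the 4 livers, at a Euclidean distance of 0.085 between log2(normalized count + 1) values centred per gene, followed by Macc1 at 0.092. The nearest to Pold1 were Arrdc3, a thioredoxin-interacting protein relative, at 0.027 and the predicted gene Gm30648 at 0.15. These distances rest on 4 livers among 15578 genes and are a description. Macc1 was at 3.42 and 8.49 normalized counts for WT and 18.0 and 13.9 for LXRDKO. It passed the filter on the mean only through the LXRDKO livers. Gm30648, at 27.4 and 24.6 for WT and 8.54 and 7.50 for LXRDKO, passed it only through the WT livers. The direction that Macc1 shares with Napsa, and Gm30648 with Pold1, therefore follows in part from the filter.

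Among the remaining markers, 6 of 6 Kupffer cell markers lay below WT, with sums of 8331 to 8803 in WT and 492 to 860 in LXRDKO, and 4 of 6 were called by limma. Timd4, a marker of resident Kupffer cells, was at 0 in 1 LXRDKO liver. Those of macrophages in general overlapped in 5 of 6. Of 6 B cell markers tested 4 lay below, with sums over the list of 268 to 369 in WT and 173 to 226 in LXRDKO. Endothelial markers lay below in 4 of 6, cholangiocyte markers above in 5 of 5 and stellate cell markers above in 4 of 6. These counts stand beside 23.0% below and 21.7% above over all genes tested, and 0.321% called by limma. Hepatocyte markers had a median log2 fold change of −0.024, and the sums of T and NK cell, neutrophil and neuron markers overlapped between genotypes. What part these cells had in the values of the flanking genes was not tested.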

How the data were processed

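RNA-Seq of livers from 2 WT and 2 LXRDKO mice was analysed. Per the methods, polyadenylated RNA was prepared with a stranded kit and single-end reads were aligned to mm10 with STAR. The values the authors deposited are a signal, normalized counts of 25010 genes, each a read count divided by a DESeq2 size factor. The counting tool and its strand setting are not given in the sources used here, so genes that overlap may share reads. Dividing each value by the step of its library gave whole reads for 100% of values, within a tolerance of 0.01 reads. Of the gene identifiers 24987 matched GENCODE M21 and 23 did not.

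log2(normalized count + 1) was compared with limma 3.58.1 (R 4.3.3, empirical Bayes with a variance trend) for 15578 genes whose mean reached 10 normalized counts, two-sided, at a Benjamini-Hochberg adjusted P of 0.05. Whether mice of a genotype were littermates is not given in the labels. The recovered reads were also tested with DESeq2 1.42.0 and edgeR 4.0.16. The tests were also run on data simulated with known changes. That run checked the code, and nothing about these livers is read from it. Replicate numbers were not used as a pairing in the main test. The deviations of same-numbered livers correlated at 0.0031 between genotypes. With 2 livers per genotype this cannot settle whether mice were handled in pairs. An exact permutation test of 2 livers against 2 cannot reach a P of 0.05. Lrrc4b and chromatin accessibility were not analysed here. Markers were 12 lists of cell types and dividing cells, and functions were 8 lists.

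The genes named were the members, both receptors, all genes tested within 500 kb of Nr1h2, called genes within 10 Mb of either receptor, the 5 largest differences within 500 kb of Nr1h3, up to 3 genes with the smallest P values of each function list, and the 2 genes nearest in pattern to the members with the largest rise and fall. A few genes that this rule would name are not reported here. Members and lists were chosen with earlier results of these data known.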

Additional observations from a re-analysis of the deposited data

How the results depend on the processing

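Over all genes tested, limma called 50 genes. The count was 567 with DESeq2, 25 with a minimum mean of 50, 1 without the variance trend and 90 with the replicate number as a replicate block, and leaving out each liver in turn gave from 2 (without LXRDKO replicate 1) to 262 (without WT replicate 1), with 8 without LXRDKO replicate 2 and 157 without WT replicate 2. The cause was not tested. Nr1h2, Nr1h3, Gm2788 and Got1 were each called under 12 of 15 alternatives. They were not called without the variance trend or without LXRDKO replicate 1 or 2, where adjusted P ran from 0.0627 to 0.219. Josd2 was not called under these 3 alternatives either, nor with a minimum mean of 50. In fits with 1 liver left out, the lone liver is assumed to vary like the other group. Of non-members within 500 kb of Nr1h2, 0 were called by limma and 1 by DESeq2 (Klk1b4). The count was 0 under every other alternative run, windows of 250 kb and 1 Mb and, chosen after seeing the data, the set without genes overlapping a member included, and it was 0 around Nr1h3 under every alternative. The replicate block changed no other call.

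The direction of all 7 members and both receptors was kept under the 15 alternatives run, or 14 for Napsa, whose mean is under the minimum of 50. Except for Akt1s1, their groups lay apart. Leaving out a liver or changing the pseudocount, filter or moderation could therefore not reverse the direction, and its being kept supports nothing. Log2 fold changes ran from −1.50 to −1.19 for Josd2, −1.72 to −1.35 for Pold1, −0.58 to −0.41 for Aspdh, −0.42 to −0.31 for Emc10, 0.23 to 0.51 for Nup62, 0.05 to 0.26 for Akt1s1 and 0.74 to 1.91 for Napsa, whose lowest and highest values came from leaving out 1 WT liver each. Napsa and Mir7052 rested on 15 to 82 and 4 to 55 reads a liver, which limits their precision.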
